A study of Mus musculus with 27 samples.

Results

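The genes AU022751, Gm773, Ccdc152 and 4933427D06Rik gave 3 or fewer raw reads in each of 3 WT embryos and held reads in the Dnmt3b-/- embryos of the same stage. These 4 genes, of 24065 in the count table, were chosen by that pattern, so their levels in both genotypes are given as a description and carry no test. Transcripts were measured by RNA-Seq in whole mouse embryos at E8.5, with 1 library made from each of 3 WT and 3 Dnmt3b-/- embryos. The mice were of the C57BL/6J strain, and the WT and Dnmt3b-/- embryos were littermates from crosses between heterozygous parents. The mutant allele came from Dnmt3b-2lox mice crossed with an ACTB-Cre deleter line, which recombines the allele in all tissues, and it encodes a catalytically inactive enzyme. The series also has 21 methylation libraries, which were not analysed here.

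DNMT3B is a de novo DNA methyltransferase that adds methyl groups to CpG dinucleotides as the embryo implants. Promoters of genes used by germ cells are among its known targets, and such genes are silent in most somatic cells. The 4 genes differ in kind. AU022751, named Ezhip in RefSeq, encodes EZH inhibitory protein, which inhibits the polycomb repressive complex PRC2 and is known from germ cells. Gm773 is a predicted protein-coding gene, Ccdc152 encodes a protein with a coiled-coil domain, and 4933427D06Rik is a long non-coding RNA named after a RIKEN cDNA clone.

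The windows around the annotated start sites are shown first, since CpG dinucleotides are the substrate of the enzyme that the mutant embryos lack. The sequences are from RefSeq on the GRCm38.p6 build and run 5′ to 3′ on the strand of the gene, from 250 bases before the start site to 50 bases after it. CpG dinucleotides are in capitals. The window of AU022751 is chrX:6083371-6083670 on the minus strand, that of Gm773 is chrX:56212832-56213131 on the minus strand, that of Ccdc152 is chr15:3303477-3303776 on the minus strand, and that of 4933427D06Rik is chr6:89095860-89096159 on the plus strand.
AU022751: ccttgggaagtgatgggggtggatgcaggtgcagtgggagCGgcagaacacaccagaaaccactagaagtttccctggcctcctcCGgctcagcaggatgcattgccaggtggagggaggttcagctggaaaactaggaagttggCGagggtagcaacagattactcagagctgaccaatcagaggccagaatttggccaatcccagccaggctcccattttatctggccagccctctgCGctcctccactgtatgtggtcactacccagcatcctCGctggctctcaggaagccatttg
Gm773: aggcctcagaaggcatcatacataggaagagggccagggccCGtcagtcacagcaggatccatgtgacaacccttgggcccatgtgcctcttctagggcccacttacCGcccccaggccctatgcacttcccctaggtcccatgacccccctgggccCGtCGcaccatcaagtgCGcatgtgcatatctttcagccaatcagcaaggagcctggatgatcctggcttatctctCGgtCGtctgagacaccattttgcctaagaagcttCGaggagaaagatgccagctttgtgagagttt
Ccdc152: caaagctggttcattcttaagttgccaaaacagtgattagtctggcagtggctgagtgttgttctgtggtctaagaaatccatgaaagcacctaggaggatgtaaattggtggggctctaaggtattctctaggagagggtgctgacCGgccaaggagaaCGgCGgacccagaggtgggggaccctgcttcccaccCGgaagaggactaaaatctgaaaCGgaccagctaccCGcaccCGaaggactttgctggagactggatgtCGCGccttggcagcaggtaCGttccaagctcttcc
4933427D06Rik: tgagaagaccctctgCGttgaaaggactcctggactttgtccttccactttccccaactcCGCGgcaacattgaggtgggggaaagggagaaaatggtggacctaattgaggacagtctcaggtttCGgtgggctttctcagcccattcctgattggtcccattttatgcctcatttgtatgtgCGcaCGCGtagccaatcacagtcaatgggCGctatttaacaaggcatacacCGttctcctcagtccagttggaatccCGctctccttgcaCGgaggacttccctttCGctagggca

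The window of AU022751 held 5 CpGs, that of Gm773 held 8, that of Ccdc152 held 10 and that of 4933427D06Rik held 12. The ratio of observed to expected CpGs was 0.208 for AU022751, 0.340 for Gm773, 0.471 for Ccdc152 and 0.585 for 4933427D06Rik. Among the 32851 windows of all annotated genes the median ratio was 0.384, and the 4 genes lay at the percentiles 29.9, 46.2, 56.2 and 63.3 in the same order. The 75th percentile of all windows was 0.750, above all 4 values. The picture for AU022751 depended on the window, because its ratio was 0.598 over 1000 bases on each side of the start site, at percentile 74.3, with 85 CpGs. Over the same wider window the ratio was 0.311 for Gm773, 0.398 for Ccdc152 and 0.413 for 4933427D06Rik. A further annotated start site of 4933427D06Rik, with its window at chr6:89100768-89101067, held 2 CpGs and had a ratio of 0.117. Short motifs were searched on both strands. CACGTG, the E-box bound by MAX and its partners, was found in 7.15% of all windows. TTCCCGC, which E2F factors bind, was found in 4.60%. TATAAA, the TATA box, was found in 13.6%. The windows of the 4 genes held 0 matches to any of these motifs, which says only that these letters are not in them.

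**Figure D1:**
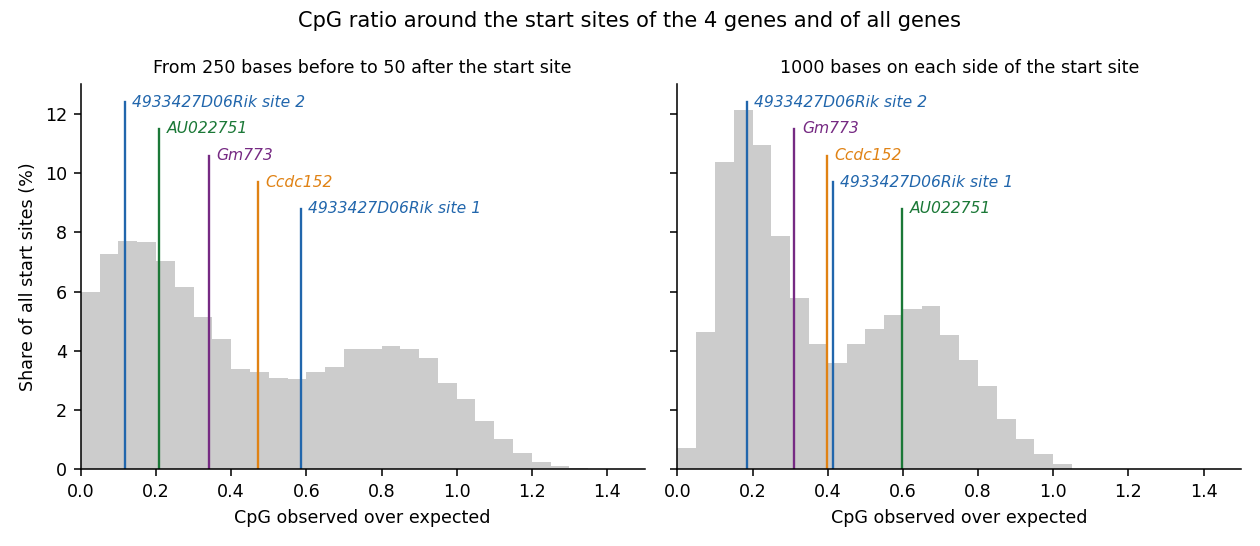
Ratio of observed to expected CpGs around the start sites of all annotated genes (grey bars, share of start sites in percent) and of the 4 genes (coloured lines), in the 300-base window on the left and over 1000 bases on each side on the right. AU022751 moves from 0.208 in the narrow window to 0.598 in the wide one, while the other start sites shift less.

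The targeted gene was examined before the 4 genes. Dnmt3b had 9197, 12195 and 7120 raw reads in WT embryos 1 to 3 and 4068, 3904 and 4196 in Dnmt3b-/- embryos 1 to 3. Its counts were lower in every Dnmt3b-/- embryo (log2 fold change -1.04, SE 0.27, adjusted p = 0.0169 in edgeR), and the remaining reads are those over all exons, which include exons outside the deletion. The 7 markers of embryonic tissues, from Sox2 in the neural tube to Tnnt2 in the heart, had 508 to 41721 reads in every embryo and 0 of the 7 were called (3 had an unadjusted p below 0.05 in edgeR, and DESeq2 called 0). A gene was called where edgeR gave an adjusted p under 0.05 together with a change of more than 2-fold. Over all 15114 genes tested, 2.12% were called higher and 3.78% lower, and at an unadjusted p below 0.05 in edgeR 22.0% were higher and 23.8% lower. DESeq2 called 2.37% of the genes it tested higher and 3.97% lower. Total counts on genes were between 41489332 and 58470286 per embryo, so that 3 raw reads equalled 2.37 to 3.49 normalized counts, which are reads scaled by the TMM method to the mean library. Xist, the RNA of the inactive X chromosome, had 18577, 4 and 15248 reads in WT embryos 1 to 3 and 11, 18781 and 3 in Dnmt3b-/- embryos 1 to 3. The Y-linked Ddx3y had 3955 reads in WT embryo 2 and 4146 and 4254 in Dnmt3b-/- embryos 1 and 3, against 6 or fewer in the others, so both genotypes held embryos of both patterns.

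AU022751 lies at chrX:6081218-6083420 on the minus strand and has a single exon of 2203 bases. It had 2, 0 and 3 raw reads in WT embryos 1 to 3, and 640, 394 and 454 in Dnmt3b-/- embryos 1 to 3. All 3 Dnmt3b-/- embryos were far above all WT embryos, with no overlap. After normalization the Dnmt3b-/- embryos had 639, 458 and 513 counts, a mean of 537 ± 92.8 (SD, n = 3), against 1.41 ± 1.33 in WT. The ratio of summed reads, corrected for depth, was 355 with an exact 95% interval of 152 to 1094, which covers counting error only. The interval is no test, since the gene was chosen on these reads. The coefficient of variation (CV, the SD as a percent of the mean) between Dnmt3b-/- embryos was 17.3%, where counting alone would give 4.52%. The embryos thus differed by more than counting error, but the highest was only 1.39 times the lowest. The CV was 7.94% without Dnmt3b-/- embryo 1, the highest of the group.

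The gene is X-linked, and its level was set beside the X and Y patterns. Of the embryos that expressed Ddx3y, the WT embryo had 0 normalized counts and the Dnmt3b-/- embryos had 639 and 513. Of those that expressed Xist, the WT embryos had 1.58 and 2.65 and the Dnmt3b-/- embryo had 458. Every Dnmt3b-/- embryo was above every WT embryo, so any division of the embryos shows the difference between the genotypes. With 1 or 2 embryos on each side, nothing about sex is read from it. A part of sex in the spread between Dnmt3b-/- embryos was not tested.

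Ccdc152, at chr15:3280099-3303526 on the minus strand, has 9 exons that add up to 924 bases. It had 1 raw read in each WT embryo, and 99, 21 and 31 in Dnmt3b-/- embryos 1 to 3. Every Dnmt3b-/- embryo was above every WT embryo. The normalized counts of the Dnmt3b-/- embryos were 98.9, 24.4 and 35.0, a mean of 52.8 ± 40.3 (SD, n = 3), against 0.939 ± 0.184 in WT. The ratio of summed reads was 60.0, with an exact 95% interval of 20.1 to 294. That interval covers counting error only, not the difference between embryos, and is no test, since the gene was chosen on these reads. The spread was wide. Embryo 1 had 4.05 times the count of embryo 2, and the CV was 76.3%, against 14.4% from counting alone. Embryo 1 carried most of this spread, since the CV was 25.2% without it. Measured against a floor of 3 reads per WT embryo, the mean was 18.7 times the floor with all 3 embryos and 10.6 times without embryo 1.

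Gm773, at chrX:56189827-56212886 on the minus strand, has 8 exons that add up to 951 bases. It had no reads in any WT embryo, and 75, 18 and 0 reads in Dnmt3b-/- embryos 1 to 3. Dnmt3b-/- embryo 3 was therefore as low as the WT embryos, and the groups overlapped. The normalized counts were 74.9, 20.9 and 0, a mean of 31.9 ± 38.6 (SD, n = 3). In embryo 1 the exact 95% interval was 58.9 to 93.9, while in embryo 3 its upper limit was 4.17 normalized counts, so these embryos differed beyond counting error. Measured against a floor of 3 reads per WT embryo, the mean was 11.3 times the floor with all 3 embryos and 3.72 times without embryo 1. The CV was 121%, where counting alone would give 18.5%. This gene is also X-linked. The embryos with 75 and 0 reads both expressed Ddx3y, and the embryo with 18 reads expressed Xist. A part of sex in this spread was not tested either.

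4933427D06Rik, at chr6:89096110-89110039 on the plus strand, has 6 merged exons of 2887 bases in all. It had 1, 2 and 0 raw reads in WT embryos 1 to 3, and 18, 18 and 25 in Dnmt3b-/- embryos 1 to 3. The groups did not overlap, although all counts were low. The normalized counts of the Dnmt3b-/- embryos were 18.0, 20.9 and 28.2, a mean of 22.4 ± 5.28 (SD, n = 3), against 1.03 ± 1.16 in WT. The ratio of summed reads was 24.2, with an exact 95% interval of 7.91 to 121. This interval too covers counting error only and is no test. The CV between Dnmt3b-/- embryos was 23.6%, where counting alone would give 22.1%. A difference between the Dnmt3b-/- embryos was not detectable at this depth.

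In total, 3 of the 4 genes had higher counts in every Dnmt3b-/- embryo than in every WT embryo. Of the 15114 genes tested, 25.3% had this order, and since the genes were chosen on the contrast nothing is read from the comparison. In bulk RNA from whole embryos, a few cells with much transcript and many cells with little cannot be told apart. Per length, as FPKM computed from the exon lengths above, AU022751 had 5.08 ± 0.88, Ccdc152 had 1.19 ± 0.91, Gm773 had 0.700 ± 0.847 and 4933427D06Rik had 0.162 ± 0.038 in the Dnmt3b-/- embryos (SD, n = 3). On the FPKM scale, AU022751 was above the other 3 genes in every Dnmt3b-/- embryo. The levels of Ccdc152 and Gm773 differed by less than their spread. 4933427D06Rik, the lowest by its mean, was below Ccdc152 in every Dnmt3b-/- embryo but above Gm773 in embryo 3, where Gm773 had no reads.

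**Figure D2:**
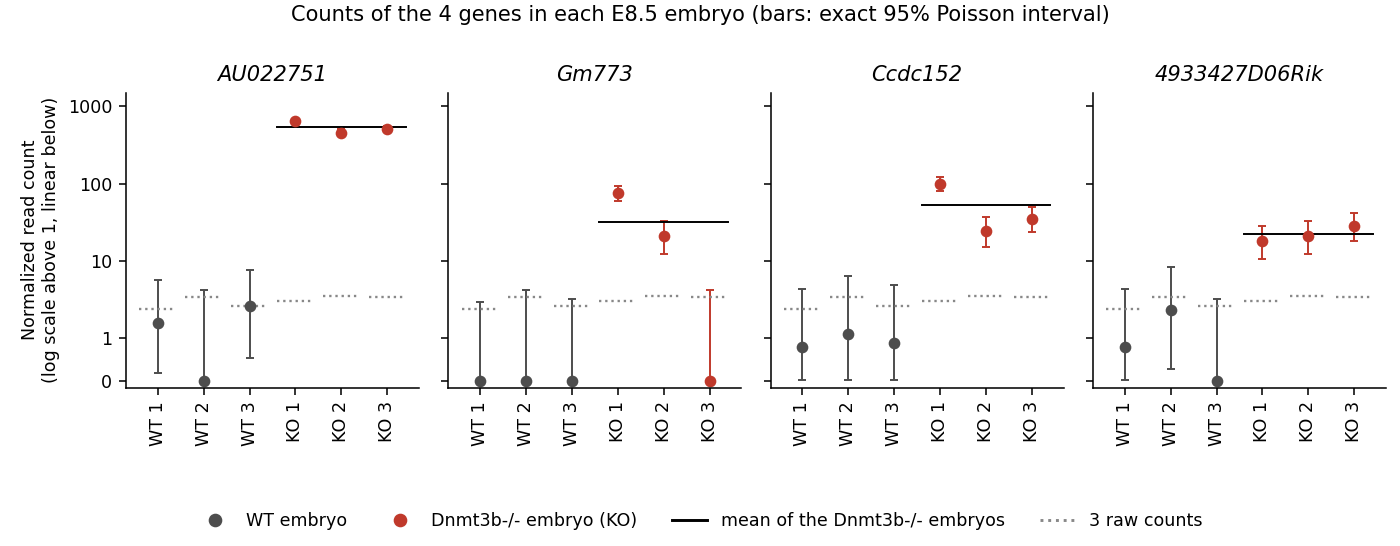
Normalized read counts of the 4 genes in each WT embryo (grey) and Dnmt3b-/- embryo (red, KO), on an axis that is logarithmic above 1 and linear below, with exact 95% Poisson intervals, the Dnmt3b-/- mean as a black line and the level of 3 raw reads dotted. AU022751 stands at 458 to 639 in the Dnmt3b-/- embryos, and Dnmt3b-/- embryo 3 has no reads of Gm773.

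The pattern was rare in the count table. At most 3 reads in each WT embryo were found for 6919 genes, of which 5807 had no read in any Dnmt3b-/- embryo either. More than 3 reads in every Dnmt3b-/- embryo were found for 38 of the 6919, among them AU022751, Ccdc152 and 4933427D06Rik. In the mirrored direction, with at most 3 reads in each Dnmt3b-/- embryo and more than 3 in every WT embryo, there were 93 genes. In normalized counts, 3 raw reads were 2.37, 3.43 and 2.65 in WT embryos 1 to 3. They were 3.00, 3.49 and 3.39 in Dnmt3b-/- embryos 1 to 3, so the limit was not equal in both directions. Leaving out an embryo relaxes both rules, so neither count can fall. Without Dnmt3b-/- embryo 1, 2 or 3 they were 77, 81 and 77 genes against 218, 159 and 137 in the mirrored direction. Without a WT embryo they were 50, 48 and 57 against 112, 189 and 144. When a sum of at least 30 reads over the Dnmt3b-/- embryos was asked for in place of more than 3 in each, there were 43 genes, which included all 4, and the mirrored rule gave 37. Which direction held more genes thus depended on the rule, although under the first rule it was the mirrored one whichever embryo was left out.

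Among these 43 genes AU022751 had the highest mean normalized count, and Ccdc152, Gm773 and 4933427D06Rik ranked 13, 16 and 20. By mean FPKM, which corrects for length, AU022751 ranked 2 after Hormad1, and the other 3 genes ranked 11, 17 and 32 in the same order. The median of the 43 means was 20.4 normalized counts, with a range from 11.3 to 537. The median CV between Dnmt3b-/- embryos was 62.9%, with a range from 14.5% to 173%. AU022751 had the third lowest CV of the 43, and 4933427D06Rik ranked 11 from the lowest, whereas Ccdc152 and Gm773 ranked 30 and 41. These CVs include counting error, which was smallest for AU022751, the gene with the most reads. The ranks thus depend on depth as well as on differences between embryos. Gm773 was 1 of 6 genes with no reads in some Dnmt3b-/- embryo. The gene was highest in embryo 1 for 17 of the 43, in embryo 2 for 9 and in embryo 3 for 17, so the high values of Ccdc152 and Gm773 in embryo 1 were not shared by all silent genes. AU022751 and Gm773 were 2 of 8 X-linked genes among the 43.

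**Figure D3:**
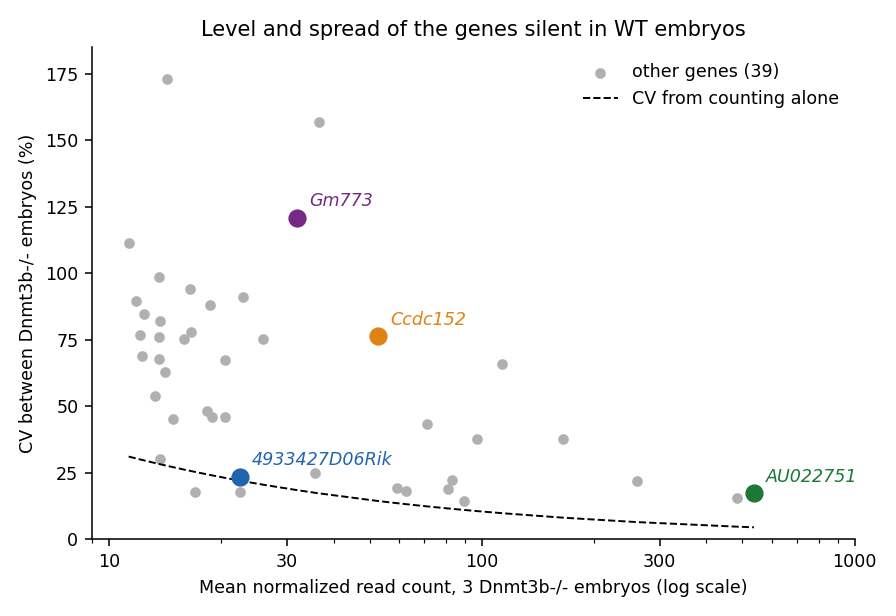
Mean normalized read count (log axis) and CV in percent over the 3 Dnmt3b-/- embryos for the 43 genes with at most 3 reads in each WT embryo and at least 30 reads in the Dnmt3b-/- embryos. The dashed line is the CV that counting alone gives: 4933427D06Rik lies on it, AU022751 at 17.3% lies above it at the highest level, and Ccdc152 and Gm773 lie far above it.

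At the WT limit itself, AU022751 was just inside, with 3 reads in WT embryo 3. Among genes with more than 3 reads in each Dnmt3b-/- embryo and at least 30 in all, 10 had a highest WT count of 3 and 5 had a highest WT count of 4. Topaz1, a germ cell gene just outside the limit, had 3, 2 and 4 reads in WT and 63, 34 and 74 in Dnmt3b-/- embryos 1 to 3. Taf7l, which encodes a germ cell form of a TFIID subunit and lay just inside, had 1, 3 and 1 reads in WT and 305, 168 and 248 in Dnmt3b-/- embryos.

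The way in which each gene was divided over the Dnmt3b-/- embryos was compared with that of the 48 genes that had at most 3 reads in each WT embryo and a Dnmt3b-/- mean of at least 10 normalized counts. The measure was the share of counts that would have to move between embryos to give the same division, so that 0% means equal divisions. AU022751 had 39.7%, 28.5% and 31.8% of its counts in embryos 1 to 3, and the nearest genes were Ly6k at a difference of 1.46%, Tex12 at 3.24% and Taf7l at 4.06%. Ccdc152 had 62.5%, 15.4% and 22.1%, and the nearest were Ccdc172 at 5.49%, Mmp21 at 9.38% and Mageb4 at 9.84%. Gm773, with 78.2%, 21.8% and 0%, had no close neighbour, as the nearest were Mmp21 at 12.7%, Pdha2 at 15.7% and Ccdc152 at 22.1%. 4933427D06Rik had 26.8%, 31.2% and 42.1%, and was nearest to Hist1h2ba at 2.42%, Hist1h2aa at 6.12% and Rpl10l at 6.39%. These divisions rest on 3 embryos, and for genes with few reads they carry the counting error described above.

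**Figure D4:**
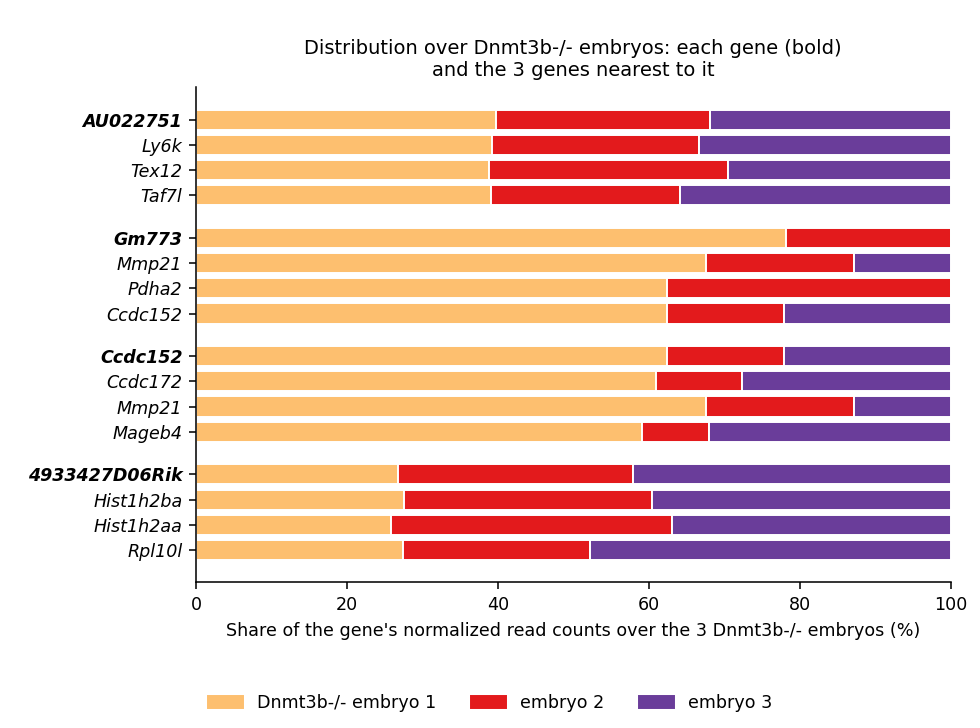
Share of normalized read counts in each of the 3 Dnmt3b-/- embryos, in percent, for each of the 4 genes (bold) and the 3 genes with the nearest division. AU022751 and 4933427D06Rik are spread over all 3 embryos, while embryo 1 holds 62.5% of the counts of Ccdc152 and 78.2% of those of Gm773.

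Genes next to the 4 genes were not used in choosing them, and their change was tested. Nudt11, 26.5 kb from AU022751, went from 1302 ± 210 normalized counts in WT to 1133 ± 80.6 in Dnmt3b-/- embryos (SD, n = 3) and did not pass the test (log2 fold change -0.20, SE 0.14, adjusted p = 0.285 in edgeR). Nudt10, 85.3 kb away on the other side, did not pass it either (log2 fold change -0.13, SE 0.19, adjusted p = 0.626 in edgeR). Both genes encode Nudix hydrolases. AU022751 also lies within the body of Gm26618, a non-coding RNA gene on the same strand, with no shared exon bases. Ccnb3, a meiotic cyclin gene 896 kb away, was the 1 gene called higher of 5 tested within 1 Mb, with 26, 7 and 24 reads in WT and 42, 54 and 35 in Dnmt3b-/- embryos (log2 fold change 1.51, SE 0.49, adjusted p = 0.0411 in edgeR). This call was lost in 7 of the 11 alternative settings that tested it, among them the omission of any embryo other than Dnmt3b-/- embryo 3, with adjusted p-values from 0.0272 to 0.126 in edgeR and DESeq2.

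Ccdc152 overlaps the end of Sepp1, the gene of the plasma selenium carrier selenoprotein P, on the opposite strand. The bodies share 412 bases, all of them in exons of both genes when predicted transcripts are included and 10 of them in curated exons. With predicted transcripts, 89 exon bases are also shared with Gm41254, a non-coding RNA gene on the opposite strand. The RefSeq release used for the counting is not given in the sources used here. Sepp1 had 7385, 11993 and 4511 reads in WT and 6900, 4997 and 4081 in Dnmt3b-/- embryos 1 to 3, and the groups overlapped (log2 fold change -0.44, SE 0.40, adjusted p = 0.419 in edgeR). Without WT embryo 2, its log2 fold change was 0.23 (adjusted p = 0.379 in edgeR). The library kit keeps the strand, but the strand setting of the counting is not given in the sources used here. WT embryo 2, with the most Sepp1 reads, had 1 read of Ccdc152, while Dnmt3b-/- embryo 1 had the most reads of both genes in its group. Whether reads of Sepp1 were counted for Ccdc152 was not tested. Ghr, the growth hormone receptor gene 14.2 kb away, did not pass the test (log2 fold change 0.28, SE 0.10, adjusted p = 0.0673 in edgeR). Of the 5 genes tested within 1 Mb of Ccdc152, 0 were called in either direction by edgeR or DESeq2, and 3 had an unadjusted p below 0.05 in edgeR.

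The body of Gm773 shares 883 bases with Gm14627, a pseudogene on the opposite strand, with no shared exon bases. Gm773 also shares sequence with other places on the X chromosome. Of its 951 exon bases, 659 (69.3%) matched elsewhere at an identity of at least 95% over at least 75 bases, the length of a read. The longest match was 345 bases at 99.7% identity, at chrX:56216744-56217088, outside any annotated gene. The other 4 matches, at 95.7% to 98.0% identity, lay in the pseudogene Gm14623 within the body of 3830403N18Rik, and 0 of them touched its exons. How reads with several alignments were counted is not given in the sources used here, so the counts of Gm773 may miss reads or include those of a copy. For AU022751, Ccdc152 and 4933427D06Rik no match of this kind was found. Weaker matches of at least 75 bases were found for 4933427D06Rik, at 2303 places and up to 89.9% identity, and for AU022751, at 3 places and up to 80.6%. 3830403N18Rik, an X-linked gene 36.3 kb from Gm773, had 67, 75 and 25 reads in WT and 503, 369 and 601 in Dnmt3b-/- embryos 1 to 3. It rose in Dnmt3b-/- embryos (log2 fold change 3.34, SE 0.43, adjusted p = 0.0012 in edgeR), and the call held in all 13 settings tried. Its highest count was in Dnmt3b-/- embryo 3, the embryo with no reads of Gm773. The other neighbour, 1600025M17Rik, had no reads in any embryo.

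Next to 4933427D06Rik, Gm1965 had 17 reads in Dnmt3b-/- embryo 3 and none in the other 5 embryos, and it was too low to be tested. Tpra1, 184 kb away, did not pass the test (log2 fold change -0.67, SE 0.25, adjusted p = 0.0679 in edgeR). Kbtbd12, 468 kb away, was the 1 gene called higher of 15 tested within 1 Mb, with 14, 3 and 11 reads in WT and 34, 30 and 33 in Dnmt3b-/- embryos (log2 fold change 2.08, SE 0.53, adjusted p = 0.0165 in edgeR). The WT reads of Kbtbd12 averaged under 10, so it passed the filter on low counts through the Dnmt3b-/- embryos. Within 1 Mb, 1 of 5 genes tested was called higher around AU022751, 1 of 10 around Gm773, 0 of 5 around Ccdc152 and 1 of 15 around 4933427D06Rik, and 0 were called lower. At an unadjusted p below 0.05 in edgeR, 1, 5, 3 and 1 of these genes were higher and 0, 0, 0 and 6 were lower in the same order, against 22.0% and 23.8% of all genes, and DESeq2 called 0 lower. The genes at each locus are too few to set against the 2.12% called higher over all genes.

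**Figure D5:**
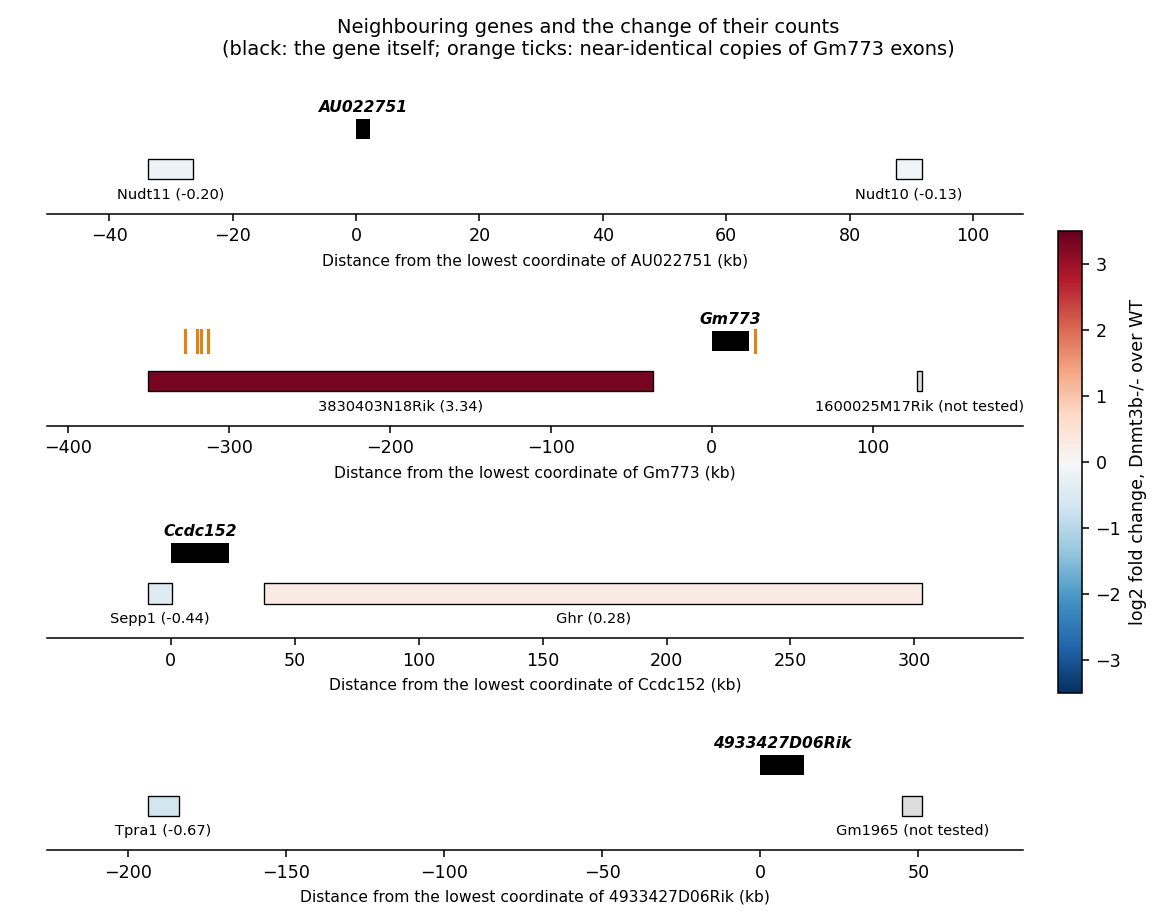
Position of the 4 genes (black) and of their overlapping or nearest neighbours, as distance in kb from the lowest coordinate of each gene. Neighbours are coloured by log2 fold change (positive where Dnmt3b-/- embryos were higher), given in brackets, and orange ticks mark near-identical copies of Gm773 exons: 3830403N18Rik, at 3.34, is the only neighbour drawn that was called.

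PRC2, the complex that the product of AU022751 inhibits, was examined through 11 genes of its core and accessory subunits. Of the 11, 0 were called by edgeR or DESeq2, and their median log2 fold change was 0.15, against -0.03 over all genes tested. At the adjusted p alone, and also at an unadjusted p below 0.05, 3 were higher and 1 was lower in edgeR, where 17.6% and 18.1% of all genes tested were higher and lower. Ezh2, the catalytic subunit, went from 7863 to 10348 mean normalized counts (log2 fold change 0.40, SE 0.11, adjusted p = 0.0207 in edgeR). Eed had a log2 fold change of 0.36 (SE 0.08, adjusted p = 0.0106 in edgeR) and Aebp2 one of 0.32 (SE 0.07, adjusted p = 0.0096 in edgeR). Rbbp4, a histone-binding subunit shared with other complexes, had a log2 fold change of -0.33 (SE 0.06, adjusted p = 0.0044 in edgeR).

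Genes of germ cells and markers of other tissues were set beside the 4 genes. The main text of the study names 26 germline genes as examples of targets of promoter methylation, from its own embryos and earlier work. Of these, 22 were tested, 16 were called higher and 0 lower, and the median log2 fold change was 3.94. Of all genes tested, 2.12% were called higher and 3.78% lower. Some of the 22 passed the filter through the Dnmt3b-/- embryos, such as Hist1h2ba, with 0 reads in each WT embryo. The shares are therefore not an unbiased comparison. None of the 4 genes is in the list of 26, which shares 3 genes with the 43 silent genes. The study's longer list of methylated promoters was not searched for the 4 genes. The list of 26 was summed for each embryo, and its total was 886 to 1313 normalized counts in WT and 7045 to 7380 in Dnmt3b-/- embryos. Markers of primordial germ cells, the embryonic germ cells themselves, summed to 5004 to 5531 normalized counts in WT and 4954 to 6160 in Dnmt3b-/- embryos. Alpl and Kit were the highest of the 10, with WT means of 2348 and 1452, while Prdm14 and Nanos3 had at most 12 and 15 reads. The sum therefore does not measure germ cell content. Of the 10 genes 8 were tested and 0 were called by edgeR, while DESeq2 called 1 higher. At an unadjusted p below 0.05 in edgeR, 2 were higher and 1 was lower. Dppa3 had 9, 20 and 19 reads in WT and 34, 18 and 152 in Dnmt3b-/- embryos 1 to 3. The median log2 fold change of the 8 tested was 0.13. The highest were 2.29 for Dppa3 and 0.96 for Ifitm3 (SE 0.84 and 0.16, adjusted p = 0.0637 and 0.0028 in edgeR). The lowest were -0.51 for Nanog and -0.24 for Alpl (SE 0.53 and 0.10, adjusted p = 0.487 and 0.0927 in edgeR). Of 15 known repressors of germline genes, 14 were tested and 0 were called by edgeR or DESeq2, with a median log2 fold change of 0.02. At an unadjusted p below 0.05 in edgeR, 4 of the 14 were higher and 3 lower, against 22.0% and 23.8% of all genes. The largest values were 0.89 for Max, a DNA-binding partner of MGA, and -0.78 for L3mbtl2, a polycomb-like protein (log2 fold change, SE 0.12 and 0.11, adjusted p = 0.0013 and 0.0016 in edgeR).

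Yolk sac endoderm markers varied strongly between embryos. The sum of 12 markers was 23697 to 203865 normalized counts in WT, with the highest value in embryo 2, and 46978, 29716 and 13077 in Dnmt3b-/- embryos 1 to 3. Of the 12, 1 was called lower and 0 higher by edgeR, where 5 were lower and 0 higher at an unadjusted p below 0.05 and DESeq2 called 2 lower and 0 higher, with a median log2 fold change of -1.20. The order of the Dnmt3b-/- embryos by these markers was that of Gm773, and embryo 1 was the highest for Ccdc152 as well. WT embryo 2, with the highest sum of all, had 0 reads of Gm773 and 1 of Ccdc152. Of 8 markers of trophoblast and decidua, Tpbpa, Prl8a2, Prl2c2 and Prl3d1 had no reads in any embryo, 2 were tested and 0 were called by edgeR or DESeq2, with 1 at an unadjusted p below 0.05 in edgeR. The sum of the 8 was 223 to 410 normalized counts in WT and 785, 245 and 298 in Dnmt3b-/- embryos 1 to 3, where Plac1 made up most of the first value with 743 raw reads. The part of these tissues in the spread of Gm773 and Ccdc152 was not tested.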

How the data were processed

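RNA-Seq libraries were prepared from total RNA after depletion of ribosomal RNA with a stranded kit, 1 for each embryo. Per the labels and the study's methods, the authors aligned reads to mm10 with TopHat2 2.0.12 and obtained raw counts in RefSeq exons with HTSeq 0.6.0. The deposited normalized signal is the raw count divided by a DESeq2 1.4.5 size factor. It was not used for the values here. The authors' own comparison, a deposited log2 fold change and its adjusted p-value, was not used either.

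Counts were normalized with TMM and tested in R 4.3.3 by edgeR 4.0.16 (quasi-likelihood test). Genes averaging 10 or more counts across the 6 embryos were kept. Benjamini-Hochberg adjustment covered all 15114 genes tested, and a call needed an adjusted p under 0.05 and more than a 2-fold change. DESeq2 1.42.0, other scalings and filters, a replicate block and the omission of each embryo were alternatives. All 4 genes passed the filter on low counts, which they did through the Dnmt3b-/- embryos, and their own test values are not given. No 2 libraries held identical values. Poisson intervals and floors of 3 counts cover counting error only, since reads without molecular identifiers are not independent molecules.

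Positions, exons and start-site windows were taken from RefSeq (GRCm38.p6, the build of mm10), in which 99.3% of the genes in the table were matched by symbol or older symbol. FPKM values were computed from raw counts, TMM-scaled library sizes and RefSeq exon lengths. Exons were compared with the genome by blastn 2.17.0. The fit was tested on simulated counts for 15114 genes with 200 genes changed 4-fold, of which it recovered 100%, with 0 false calls. The changed genes had a mean of at least 50 counts, and the simulated spread between embryos was small and equal for all genes. The result does not carry over to genes with fewer reads, such as Ccnb3 and Kbtbd12, or with a wider spread. Figures were drawn in Python 3.11.15 with matplotlib 3.10.9.

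The named genes are the 4 genes, Dnmt3b, overlapping and nearest genes, called genes within 1 Mb, the 3 genes nearest in their division over embryos, and members of the marker lists. A match of the proteins was foreseen but not run. The genes, gene lists and tests were chosen with earlier results of these data known. The list of PRC2 subunits, the wider promoter window, the ratio of summed reads and the sum of 30 reads were added after seeing the data, and Topaz1 and Taf7l at the WT limit and members named from the lists were picked after their values were seen.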

Additional observations from a re-analysis of the deposited data

How the results depend on the processing

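The number of genes with at most 3 reads in each WT embryo and more than 3 in every Dnmt3b-/- embryo (38) was 6 with a WT limit of 0, 12 with a limit of 1, 92 with at least 1 read in every Dnmt3b-/- embryo, 19 with at least 10, and 48 to 81 with 1 embryo left out. The ratio of the Dnmt3b-/- mean to a floor of 3 reads per WT embryo was 191 for AU022751, 11.3 for Gm773, 18.7 for Ccdc152 and 7.95 for 4933427D06Rik. With 3 reads over the whole WT group it was 572, 34.0, 56.2 and 23.8, and with 1 embryo left out it was 172 to 214, 3.72 to 17.0, 10.6 to 23.8 and 6.91 to 8.93. With the observed WT reads in place of the floor it was 355 for AU022751, 60.0 for Ccdc152 and 24.2 for 4933427D06Rik. Without 1 Dnmt3b-/- embryo, the CV was 7.94% to 23.3% for AU022751, 79.6% to 141% for Gm773, 25.2% to 85.4% for Ccdc152 and 10.8% to 31.4% for 4933427D06Rik. The CpG ratio of AU022751 was 0.598 in the window of 1000 bases on each side. That of the further start site of 4933427D06Rik was 0.0729 before the start site and 0.184 in the wider window.

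The calls over all genes, 320 higher and 571 lower, were 246 and 710 with total counts as scaling, which moved the median log2 fold change from -0.03 to -0.11 and the share of higher calls from 35.9% to 25.7%. The numbers of calls stayed within 1.5 times in every alternative run, that with total counts included, and were 242 to 381 and 391 to 775 with 1 embryo left out. With a replicate block there were 265 and 516. The deviations of same-numbered embryos from their group means had correlations of r = -0.06, -0.15 and -0.01. With 3 embryos per group, these values cannot decide whether the numbers mark litters. The log2 fold change of Sepp1 was -0.76 to 0.23 and that of Nudt10 -0.27 to 0.065 with 1 embryo left out. Both changed sign without WT embryo 2, neither passed the threshold, and the cause was not tested. Ghr passed an adjusted p of 0.05 with DESeq2 (0.0260), with its size factors in edgeR (0.0496) and without Dnmt3b-/- embryo 3 (0.0469), and Tpra1 with DESeq2 (0.0302) and without Dnmt3b-/- embryo 1 (0.0233), at fold changes under 2. Depth limits 4933427D06Rik most, since its Dnmt3b-/- embryos had at most 25 reads each.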
